A study of Mus musculus with 4 samples.

Results

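TAD5 is a topologically associating domain (TAD) of 472.5 kb on mouse chromosome 3 (mm9, 93.53 to 94.0025 Mb) that holds Tdpoz3, Tdpoz4, Tdpoz5 and related genes at the edge of the epidermal differentiation complex (EDC). The contacts described here had at least 1 restriction fragment with its midpoint in TAD5, and contacts with TAD2 (90.635 to 91.895 Mb) were left out. They numbered 2314 of the 111588 contacts listed in any of the 4 libraries. Of these, 1817 of 95692 were listed in keratinocyte library 1, 1457 of 67210 in keratinocyte library 2, 1098 of 45861 in thymocyte library 1 and 1189 of 53420 in thymocyte library 2, and 527 of 23395 were listed in all 4.

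The libraries came from primary cells of newborn C57BL/6 mice with no further treatment or genetic change. The 2 keratinocyte libraries were made from epidermal cells plated for 15 hours at 32 °C in low-calcium medium, and the 2 thymocyte libraries from cells released from the thymus. All cells were fixed with 1% formaldehyde for 10 minutes. The study calls the 2 libraries of a cell type biological replicates, but neither it nor the labels say whether they came from separate animals. The p-values of tests over libraries measure only the spread between these libraries. The deposited p-values and q-values of single contacts come from a fit over the contacts of 1 library. No marker of cell identity is measured by this assay.

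In chromosome conformation capture carbon copy (5C), cross-linked chromatin is cut, here with HindIII, and religated, and a forward and a reverse probe are joined where their fragments were ligated to each other. TADs are stretches of chromatin whose parts meet each other more often than they meet the chromatin beyond their borders. The EDC carries the genes of the cornified envelope and of the S100, Sprr, Lce and filaggrin families, many of which are switched on as keratinocytes mature. Thymocytes serve as cells in which the keratinocyte-specific genes of the locus are inactive. Tdpoz genes encode proteins with a TRAF-like (MATH) and a POZ (BTB) domain related to Spop, an adaptor of the Cullin 3 ubiquitin ligase, and arose by repeated duplication in mice. They are known from eggs and early embryos, not from skin or thymus.

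The GENCODE annotation placed 12 gene starts in TAD5, 11 of them of protein-coding genes: Gm5852, Gm5773, Tdpoz4, Tdpoz3, Gm9116, Gm9117, Tdpoz5, Gm9125 (RefSeq Tdpoz9), Gm10697 (Tdpoz7), Gm10696 (Spopfm2) and Gm5286 (Spopfm3). The family ran on across both borders, with Tdpoz1 and the pseudogene Tdpoz2 at the end of TAD4 and Gm4778 (Spopfm1) at the start of TAD6. The study classes TAD5 as gene-poor by its density of protein-coding genes. The 11 protein-coding starts given here are those of the GENCODE annotation, not the study's count. The domain had 154 HindIII fragments, of which 10 (6.49%) had a contact in any library, against 45.3% of the fragments elsewhere in the locus. The fragments measured were 47.25 kb apart on average in TAD5 and 6.88 kb elsewhere. Of all stretches of 30 bases in TAD5, 74.4% occurred again in the locus, against 19.0% outside TAD5.

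The 10 fragments, named by the type of their probe (F, forward; R, reverse) and their number, were F1223, R1225, F1228, R1247, R1249, R1266, F1275, R1281, R1311 and F1351. Of these, 8 were kept in all 4 libraries. R1266 had contacts only in the thymocyte libraries and R1281 only in keratinocyte library 1. The 5 fragments from F1223 to R1249 lay in the first 100 kb of the domain, so that most values of TAD5 are values of its side next to TAD4. R1249 (chr3:93621427-93627532) was the nearest to the start of Tdpoz3, at 2.41 kb, and R1225 (chr3:93574851-93577264) held the start of Gm5773. No fragment lay within 10 kb of Tdpoz4 or Tdpoz5, whose starts were 16.1 kb from F1228 and 44.1 kb from R1281.

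The parts of the probes that anneal to the genome are shown for 9 TAD5 fragments and for 3 partners of strong contacts, since many of them recur in the locus. The R1266 probe, which had no match within 3 mismatches at its own place in the reference, is not shown. Each is written 5′ to 3′, forward probes on the plus strand and reverse probes on the minus strand, and the capitals mark the piece of the HindIII site at which fragments are joined.
F1223: gctttggaagtctctatctgacctaatAAG
R1225: CTTtgtgtatattggtatttctctccttgg
F1228: ttgtctgctatgtgtccttcttggaccAAG
R1247: CTTattcctcacattctctgctatgaggtt
R1249: CTTactagaatagagaccccccaaagcaaa
F1275: gttacataaaattgccacatacatcacAAG
R1281: CTTacttagtgggcacaagtctctgtgttc
R1311: CTTttgcagcaccctggggagagaacctat
F1351: actgtcttccaggagtttactagttcgAAG
R1198: CTTcctccagtaaatggatgggagcagatg
F1377: tatatcacctgtatgtcattctctccaAAG
F1380: ctttgtgttattctaatcagaaccaccAAG

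With up to 3 mismatches, 8 of the 10 TAD5 probes had a second copy in the locus, against 5.86% of the 700 probes elsewhere. In 4 of the 10 the copy ended at a complete HindIII site (F1223, R1247, F1275 and R1281), against 2% elsewhere. The copy of F1223 lay in TAD4 at chr3:93458662-93458691, that of R1247 in TAD6 at chr3:94050678-94050707 and that of F1275 in TAD5 at chr3:93543111-93543140, each without a mismatch. In turn the TAD6 probe F1377 had an exact copy in TAD5 (chr3:93634131-93634160), and so had the TAD4 probe R1198 (chr3:93565689-93565718). Where such a copy ends at a HindIII site, a ligation at the copy gives the same probe sequence, so that the contacts of both places cannot be told apart. The probe of R1249, by the Tdpoz3 start, was the reverse case, since its next best place in the locus had 9 mismatches.

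The libraries differed before any comparison of TAD5. Over the 23395 contacts listed in all 4, Z scores of keratinocyte library 2 correlated more with thymocyte library 1 (r = 0.362 across contacts, which share fragments) than with keratinocyte library 1 (r = 0.278), and the 2 thymocyte libraries correlated at 0.249. Over the TAD5 contacts the same correlations were 0.293, 0.245 and 0.197. Libraries of 1 cell type were therefore not always the most alike in Z score, and results are given by library. For raw counts the study reports higher correlations within each cell type than between the cell types. Contacts missing from a library's table were treated as unmeasured, not as 0. Read counts were not recoverable, so that the depth is unknown.

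Keratinocyte libraries listed more of the possible TAD5 contacts. The share of forward-reverse pairs that were listed, among the fragments each library kept, was 67.6% and 60.4% in keratinocytes and 40.2% and 44.6% in thymocytes. Both keratinocyte libraries lay above both thymocyte libraries, by 21.6 percentage points on average (two-sided exact permutation p = 0.333, the smallest that 2 against 2 libraries allow). The same order held over the whole locus, where the shares were 81.6%, 57.0%, 38.1% and 46.6%. In the first keratinocyte library TAD5 pairs were listed less often than pairs of the whole locus, and in the second slightly more often.

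The first question was how TAD5 met its own parts. Only 10 contacts within TAD5 were listed in all 4 libraries, and 6 of these joined R1225, R1247 or R1249 to F1275 or F1351. Their mean Z score, the distance of the observed from the expected frequency in weighted standard deviations, was 2.49 and 1.01 in keratinocytes and 0.379 and 0.540 in thymocytes. Both keratinocyte libraries were higher, with a mean difference of 1.29 (two-sided exact permutation p = 0.333). Over all 7377 contacts within any TAD the corresponding difference was -0.0235. The value rested on few contacts: it was 2.03 without keratinocyte library 2, 0.547 without keratinocyte library 1, and 0.577 when R1225 was left out. Among fragments without a probe copy at a HindIII site, 4 contacts remained, with 0.828 and 0.723 in keratinocytes and -0.449 and 0.0895 in thymocytes.

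**Figure D1:**
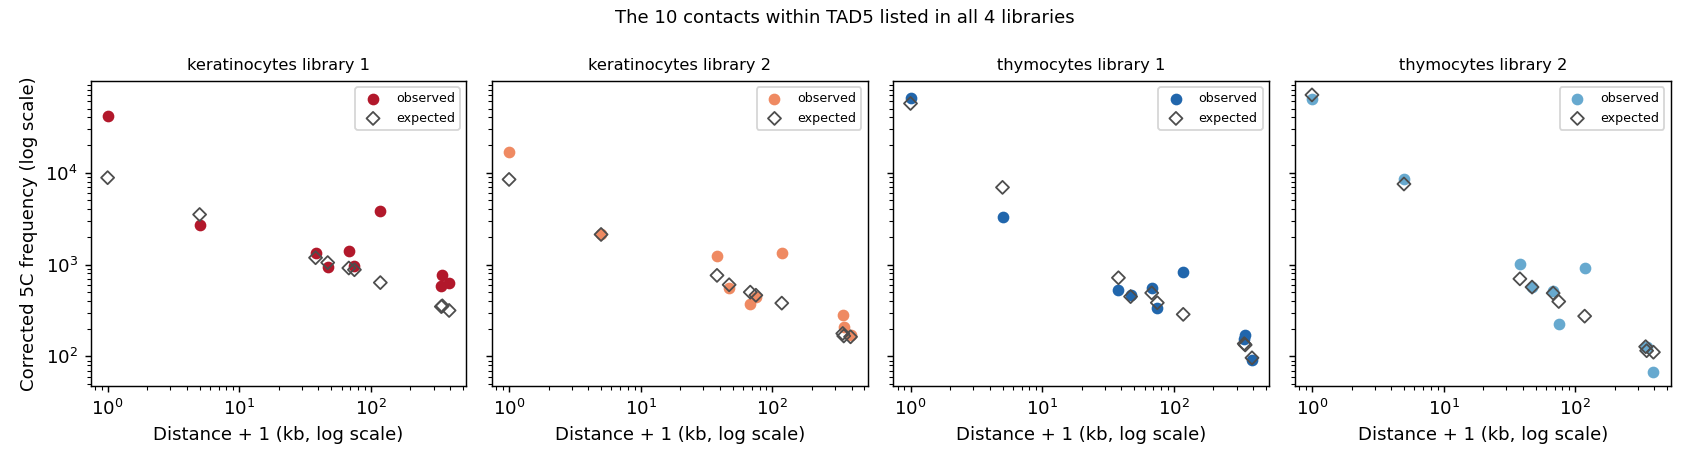
Observed (filled) and expected (open diamonds) corrected 5C frequency, log scale, against the distance between fragments plus 1 kb, log scale, for the 10 contacts within TAD5 listed in all 4 libraries, 1 panel per library. Most contacts lie near the expected value, and the contact of F1275 with R1225 at 117 kb lies above it in each panel.

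The contact of F1275 with R1225, the fragment with the Gm5773 start, stood apart from its expected value in every library. The fragments lie 117 kb apart. Its corrected frequency was 3798 against an expected 637 in keratinocyte library 1 and 1340 against 381 in library 2. In thymocytes it was 829 against 287 and 908 against 275. The Z scores were 11.1, 5.38, 4.40 and 6.14. The copy of the F1275 probe, printed above, lies 31.7 kb from R1225, and at that distance the median expected frequency was 1268, 771, 744 and 769. The observed values were 3.00, 1.74, 1.11 and 1.18 times these, compared with 5.97, 3.52, 2.89 and 3.31 times the expected values at 117 kb. The part of the copy in this contact was not tested.

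At the other end of the scale, F1223 and R1225 lie 63 bases apart. Their frequency was 41452 and 16880 in keratinocytes and 64477 and 64298 in thymocytes, and their Z scores were 7.03, 2.15, 0.345 and -0.235. Thymocyte frequencies were higher, but so were the expected values at this distance (56823 and 70413 against 8837 and 8459). The other 8 contacts within TAD5 had Z scores from -1.31 to 2.48. Among them were the contacts of F1351, at the far end of the domain, with R1225, R1247 and R1249 over 342 to 392 kb. Their Z scores were 1.46 to 2.48 in keratinocyte library 1, 0.0866 to 1.39 in keratinocyte library 2 and -1.14 to 0.665 in thymocytes.

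Contacts within TAD5 were then set against contacts within its neighbours in the same 50 kb bin of distance. Distances inside a bin still differed: in thymocyte library 1 the expected frequency was 56823 at 63 bases and 448 at 46 kb. The borders were called by the authors on these libraries, so that values within and across them are given as a description. In thymocytes the study saw the border of TAD4 with TAD5 as softened, without a clear separation. The keratinocyte border was used here for the thymocyte libraries too. The log2 frequency within TAD5 minus that within TAD4 was 0.96 and 0.49 in keratinocytes and -0.050 and -0.31 in thymocytes. Against TAD6 it was 0.68 and 0.37 in keratinocytes and 0.068 and -0.15 in thymocytes. The means over libraries were 0.27 (two-sided exact sign-flip permutation p = 0.5 over 4 libraries) and 0.24 (p = 0.375 in the same exact test). In all but keratinocyte library 1 only the first bin held enough contacts, and without the pair 63 bases apart the means became -0.51 and -0.54. The sign of these means therefore rested on 1 contact, but no contact of the neighbours was left out with it. With the Z score, which is relative to the expected frequency, the difference from TAD4 was 2.47 and 0.598 in keratinocytes. In thymocytes it was -0.617 and -0.396. Against TAD6 the Z score difference was 2.13 and 0.366 in keratinocytes and -0.628 and -0.216 in thymocytes.

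Across its borders, TAD5 had 224 contacts with TAD4 and 78 with TAD6 that were listed in all 4 libraries. With TAD4 the median corrected frequency was 247 and 135 in keratinocytes, against expected medians of 205 and 117, and 106 and 101 in thymocytes, against 84.5 and 90.2. With TAD6 it was 114 and 85.7 in keratinocytes, against 140 and 84.8, and 66.0 and 60.2 in thymocytes, against 61.4 and 59.6. The median distance was 583.5 kb to TAD4 and 767 kb to TAD6. Over these contacts the median frequency to TAD4 was above the expected median in all libraries, whereas that to TAD6 was below it in keratinocyte library 1 and within 5 units of it in the others. Over all TAD4 contacts that keratinocyte library 1 listed (516), the median was 202 against an expected 203, and 44.8% of Z scores were above 0. In the other 3 libraries the medians over all listed TAD4 contacts were 129 against 117, 102 against 86.3 and 100.1 against 93.1.

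Mean Z scores with TAD4 were 0.543 and 0.350 in keratinocytes and 0.726 and 0.746 in thymocytes. With TAD6 they were -0.0201 and 0.224 in keratinocytes and 0.484 and 0.406 in thymocytes. For both neighbours the thymocyte libraries lay above the keratinocyte libraries, and keratinocytes minus thymocytes was -0.290 for TAD4 and -0.342 for TAD6 (two-sided exact permutation p = 0.333 in each case). Without keratinocyte library 1 the TAD6 difference was -0.220, and without keratinocyte library 2 the TAD4 difference was -0.193. The same order was seen over all 16018 contacts between different TADs, where the difference was -0.151, and between TAD4 and TAD6, which flank TAD5, where it was -0.207. Within TAD4 it was -0.237 and within TAD6 0.0832. Relative to the mean of each library over the 16018 contacts, the difference was -0.138 for TAD4 (two-sided exact permutation p = 0.667). For TAD6 it was -0.191 (p = 0.333 in the same exact test). On this relative scale the libraries of the cell types overlapped for TAD4. The difference with TAD4 was -0.137 when R1249 was left out. For this fragment, by the Tdpoz3 start, the 37 contacts with TAD4 had mean Z scores of 0.573 and 0.100 in keratinocytes and 1.42 and 1.38 in thymocytes. With the fragments free of a probe copy at a HindIII site, the 41 contacts with TAD6 had -0.239 and 0.0774 in keratinocytes and 0.0950 and -0.0110 in thymocytes, so that the cell types overlapped, whereas for the 116 contacts with TAD4 they did not (0.498, 0.272, 0.938 and 0.731).

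**Figure D2:**
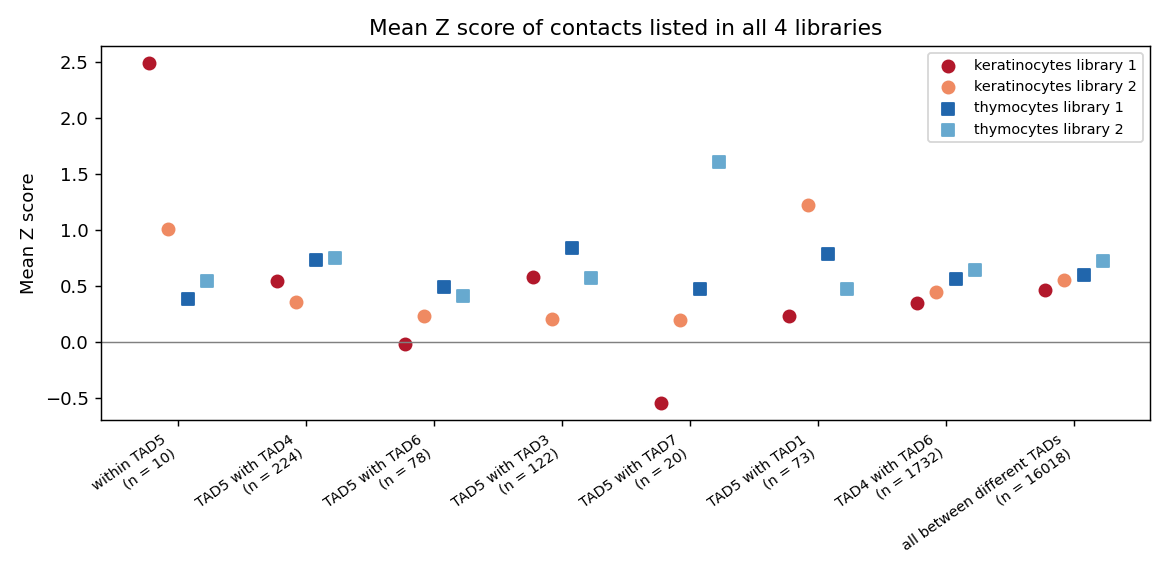
Mean Z score over contacts listed in all 4 libraries, by partner of TAD5, with the contacts of TAD4 with TAD6 and all contacts between different TADs for comparison. Each point is 1 library, and n is the number of contacts. Keratinocyte libraries lie above thymocyte libraries within TAD5 and below them for TAD4, TAD6 and TAD7, while the libraries of the cell types overlap for TAD3 and TAD1.

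At matched distances TAD5 had higher Z scores with TAD4 than with TAD6 in each library. The differences were 0.519 and 0.0319 in keratinocytes and 0.267 and 0.0979 in thymocytes (mean 0.229 ± 0.217 SD, n = 4; two-sided exact sign-flip permutation p = 0.125, the smallest possible with 4 libraries). Without keratinocyte library 1 the mean was 0.132. They became -0.0856 and -0.0375 in the thymocyte libraries when the thymocyte border at 93.89 Mb was taken as the end of TAD5, which moves F1351 and the nearby Spopfm genes into TAD6. With the fragments free of a copy at a HindIII site they were 0.469, -0.0334, 0.658 and 0.212. The sign in keratinocyte library 2 therefore depended on which fragments were used.

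**Figure D3:**
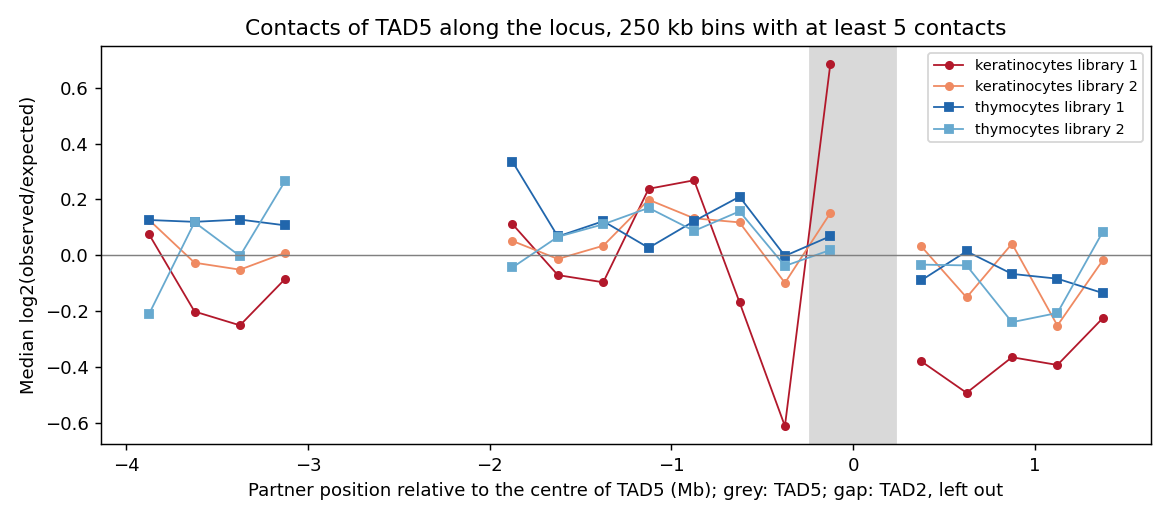
Median log2 of observed over expected frequency of TAD5 contacts against the position of the partner relative to the centre of TAD5, in 250 kb bins holding 5 contacts or more. Lines are libraries, grey marks TAD5 (for contacts within it, the position of the reverse fragment) and the gap is TAD2, which was left out. Keratinocyte library 1 falls to -0.61 in the bin next to TAD5 on the TAD4 side, lies below the other libraries on the TAD6 side (-0.49 to -0.22) and reaches 0.68 inside TAD5, and the other 3 libraries stay between -0.25 and 0.34.

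With far partners the libraries of the cell types overlapped for TAD3 and TAD1 and did not for TAD7. With TAD3 (122 contacts), which holds Sprr and Lce genes of the EDC, mean Z scores were 0.576 and 0.202 in keratinocytes and 0.840 and 0.572 in thymocytes (difference -0.317, two-sided exact permutation p = 0.667). With TAD1 (73 contacts), which holds S100 genes, they were 0.225 and 1.22 in keratinocytes and 0.786 and 0.469 in thymocytes (difference 0.0966, exact permutation p = 1). The keratinocyte libraries stood here on either side of the thymocyte libraries. With TAD7 (20 contacts) they were -0.549 and 0.197 in keratinocytes and 0.473 and 1.61 in thymocytes, a difference of -1.22 with no overlap (exact permutation p = 0.333). Without R1247 the TAD7 difference was -0.637 and without R1225 it was -1.86. The value of the second thymocyte library came in part from 1 contact of R1247, described below. The 10 contacts of fragments without such a copy had -0.571, 0.350, 0.146 and -0.200, which overlapped between the cell types.

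The far contacts of TAD5, at 1 Mb or more and with TAD1, TAD3 or TAD7, were compared with those of its neighbours in bins of 250 kb. The Z score of TAD5 minus that of TAD4 was -0.177 and -0.143 in keratinocytes and 0.119 and 0.181 in thymocytes (mean -0.00512, two-sided exact sign-flip permutation p = 1). Minus that of TAD6 it was -0.0938 and 0.0209 in keratinocytes and -0.0313 and 0.0608 in thymocytes (mean -0.0108, exact sign-flip permutation p = 0.75). TAD5 was thus above TAD4 in the thymocyte libraries and below it in the keratinocyte libraries, and its difference from TAD6 was under 0.1 in each library.

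The fragments of TAD5 were also compared with each other. Over the contacts listed in all 4 libraries, the mean Z score of F1223 (100 contacts) was 0.454 and 0.395 in keratinocytes and 0.461 and 0.772 in thymocytes. R1225 (118 contacts) had 0.379 and 0.354 in keratinocytes and 0.470 and 0.189 in thymocytes, the lowest of the 8 fragments in thymocyte library 2. R1249 (68 contacts) had 0.849 and 0.233 in keratinocytes and 1.01 and 1.02 in thymocytes. F1228 (35 contacts) had -0.148 and 0.271 in keratinocytes and 0.649 and 0.650 in thymocytes. R1247 (96 contacts) had 0.328 and 0.686 in keratinocytes and 0.847 and 0.753 in thymocytes. F1351 (52 contacts) had 0.400 and 0.379 in keratinocytes and 1.36 and 0.524 in thymocytes, and F1275 (66 contacts) had 0.769 and 0.606 in keratinocytes and 0.523 and 0.778 in thymocytes. Both thymocyte libraries exceeded both keratinocyte libraries for F1223, F1228, R1247, R1249 and F1351, but not for R1225, F1275 and R1311, the last of which had only 2 contacts. For F1223 the nearest values were 0.461 in thymocytes and 0.454 in keratinocytes. The same order, without overlap, held over all 23395 contacts, where keratinocytes minus thymocytes was -0.111. The share of fragments elsewhere in the locus with this order is not given, so it is not a trait of TAD5 fragments.

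**Figure D4:**
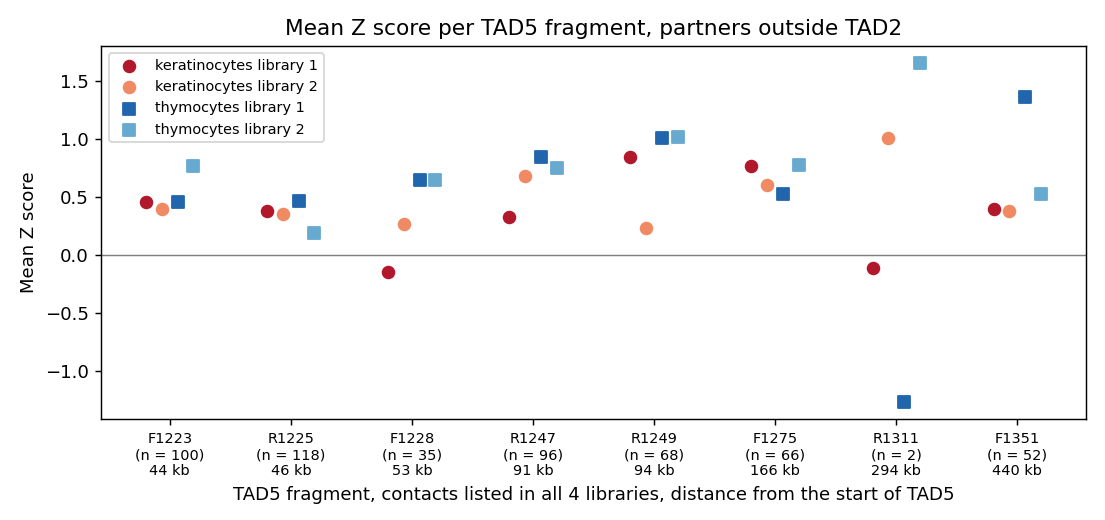
Mean Z score of each TAD5 fragment over its contacts listed in all 4 libraries (n below each name, with the distance of the fragment from the start of TAD5). Each point is 1 library. The thymocyte libraries lie above the keratinocyte libraries for F1223, F1228, R1247, R1249 and F1351, and the 2 contacts of R1311 scatter most.

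Single contacts were counted as enriched where both libraries of a cell type had a deposited q-value under 0.05. In keratinocytes 20 of 1155 TAD5 contacts passed, 1.73%, against 1.99% of all contacts listed in both libraries. In thymocytes 30 of 756 passed, 3.97%, against 4.03%. TAD5 outside TAD2 thus had a share of enriched contacts near that of the whole locus in both cell types. With a q-value under 0.01 the counts were 9 (1.19% of all contacts passed) and 23 (3.08%), with one under 0.1 they were 25 (2.71%) and 35 (4.73%), and with p-values adjusted anew (Benjamini-Hochberg) 17 (1.87%) and 28 (3.87%). In single libraries 5.39% and 8.79% of the TAD5 contacts passed in keratinocytes, against 5.99% and 11.4% of all contacts. In thymocytes 12.8% and 15.0% passed, against 11.7% and 14.5%. By partner, keratinocytes had 4 of 356 with TAD4, 3 of 202 with TAD6, 1 of 13 within TAD5, 5 of 250 with TAD3, 7 of 246 with TAD1 and 0 of 88 with TAD7. Thymocytes had 7 of 291 with TAD4, 11 of 133 with TAD6, 1 of 11 within TAD5, 4 of 161 with TAD3, 4 of 115 with TAD1 and 3 of 45 with TAD7.

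The share with TAD6 in thymocytes, 8.27%, was above that between TAD4 and TAD6 (4.37%), within TAD4 (2.88%) and within TAD6 (6.23%), a difference that was not tested. The same shares in keratinocytes were 0.987%, 0.951% and 3.80%. Leaving out contacts in which a copy of either probe at a HindIII site lay within 100 kb of the other fragment, the thymocyte share with TAD6 was 8 of 127 (6.30%). In single thymocyte libraries 15.4% and 14.8% of the contacts with TAD6 passed. There the shares were 13.9% and 15.3% between TAD4 and TAD6, 14.4% and 14.2% within TAD6, and 7.5% and 7.4% within TAD4. In the far contacts at 1 Mb or more, 1.77% were enriched in keratinocytes and 3.53% in thymocytes. The corresponding shares for far contacts of TAD4 were 1.87% and 3.98%, and for those of TAD6 1.95% and 3.37%.

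Several of the strongest contacts with neighbours joined fragments whose probes recur near the partner. Of the 5 neighbour contacts with the highest mean Z score, 3 had such a copy within 100 kb in keratinocytes and 3 in thymocytes, although this holds for only 2.34% and 2.78% of the TAD5 contacts listed. F1223 and R1198, a TAD4 fragment 5.41 kb from the start of the pseudogene Tdpoz2, lie 106 kb apart and had Z scores of 4.17 and 20.3 in keratinocytes, the highest mean of any TAD5 contact there. Thymocyte libraries did not list this contact. The copy of the one probe lies 3.30 kb from the fragment of the other.

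**Figure D5:**
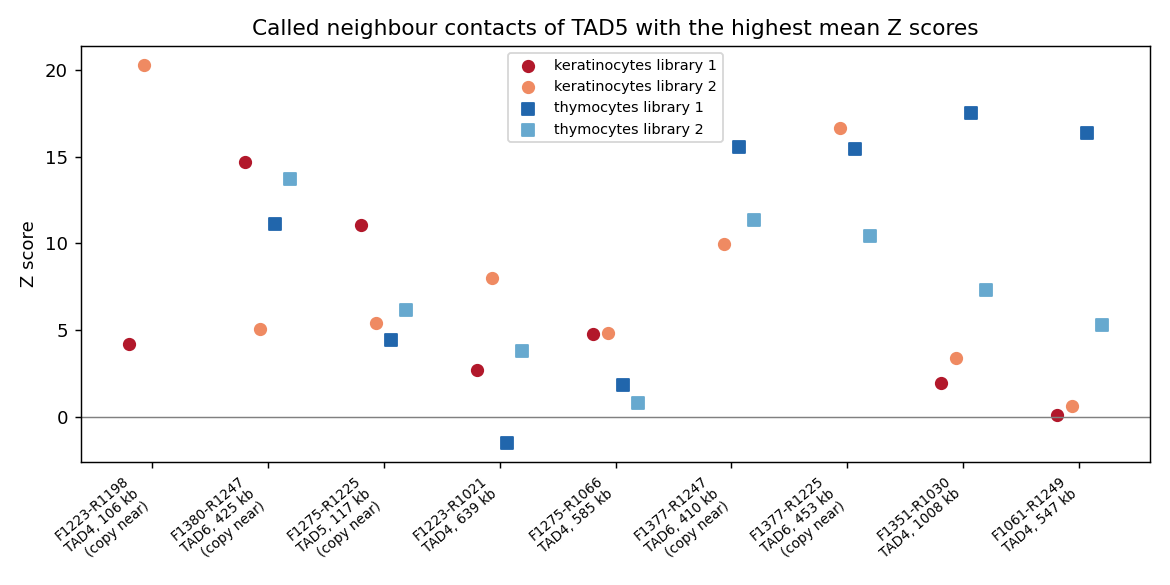
Z scores in each library of the contacts of TAD5 with TAD4, TAD6 or itself that ranked in the first 5 by mean Z score among the enriched contacts of a cell type. Labels give the contact, the domain of the partner, the distance and, where a probe copy at a HindIII site lies within 100 kb of the other fragment, "copy near". A missing point means that the library did not list the contact. F1380-R1247 and F1275-R1225 are above 4 in each library.

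R1247 met 2 fragments just inside TAD6, next to the pseudogenes Gm9141 and Gm4982. With F1380, which holds the Gm9141 start 425 kb away, its frequency was 2384 and 524 in keratinocytes (expected 298 and 158) and 482 and 654 in thymocytes (expected 94.3 and 104). Z scores were 14.7, 5.03, 11.1 and 13.7, and this contact and F1275 with R1225 were the only 2 of 527 enriched in all 4 libraries (0.380%, against 0.581% of all contacts). The exact copy of the R1247 probe lies 2.68 kb from F1380. The observed frequencies were 0.571, 0.195, 0.0591 and 0.0521 times the median expected at that distance, so they lay between the values expected for the 2 places.

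With F1377, 4.11 kb from the Gm4982 start, R1247 had Z scores of 15.6 and 11.3 in thymocytes and 9.94 in keratinocyte library 2, over 410 kb. R1225 had 15.4 and 10.4 in thymocytes and 16.7 in keratinocyte library 2 with the same partner, over 453 kb. Keratinocyte library 1 listed neither contact, so neither could be counted in keratinocytes. The exact copy of the F1377 probe inside TAD5 lies 13.1 kb from R1247 and 56.9 kb from R1225. The part of these copies in the contacts was not tested.

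Some enriched neighbour contacts had no copy near the partner, among them those with the filaggrin group in TAD4. In keratinocytes F1275 met R1066, 8.57 kb from the start of Flg (filaggrin, a structural protein of the cornified layer), with Z scores of 4.74 and 4.81, against 1.84 and 0.778 in thymocytes. In thymocytes R1249 met F1061, 2.86 kb from the Flg start, with Z scores of 16.3 and 5.30, against 0.114 and 0.608 in keratinocytes. Frequencies of this contact were 554 and 287 in thymocytes (expected 87.7 and 95.6) and 258 and 192 in keratinocytes (expected 244 and 151). F1275 also met R1062, which begins at the base after the end of F1061 and lies 0.563 kb from the Flg start. The Z scores of this enriched contact were 5.41 and 3.15 in keratinocytes, against 1.52 and 1.93 in thymocytes. All of these partners lie near Flg. F1275 and F1061 both have forward probes, and R1249, R1066 and R1062 have reverse probes. Neither TAD5 fragment could therefore be measured with a partner of the other, and their contacts cannot be compared on the same partner fragment. The F1275 probe also has the exact copy in TAD5 given above.

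F1351 and R1030, in TAD4 over 1008 kb, had Z scores of 17.5 and 7.29 in thymocytes and 1.92 and 3.37 in keratinocytes, the latter past the threshold in keratinocyte library 2. F1223 met R1021, over 639 kb, with 2.71 and 7.99 in keratinocytes and -1.51 and 3.79 in thymocytes. F1351 met R1403, which holds the start of Them4 (a thioesterase gene) 142 kb away in TAD6, with 6.15 and 3.93 in thymocytes, and neither keratinocyte library listed it. R1249 met F984 near Lce1m with 7.81 and 9.18 in thymocytes, against -0.320 in the keratinocyte library that listed it.

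Among far partners, the highest mean Z scores in keratinocytes were those of F54 with R1247 (7.16 and 10.0), F1351 with R112 (2.78 and 12.0), F154 with R1311 (3.07 and 11.7), F1275 with R707 (3.44 and 7.15) and F1228 with R41 (2.68 and 6.52). The first 3 and the last reach TAD1 over 3438 to 3669 kb. R112 is 4.85 kb from the start of Snapin, a gene of vesicle transport, and R41 holds that of Crtc2, a coactivator of CREB. In each of the 5 the second keratinocyte library had the higher score. Thymocyte values exist for only 3 of them, in 1 library each: -2.28 for F54 with R1247, 0.289 for F1351 with R112 and 1.78 for F1228 with R41.

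In thymocytes the highest far contacts were F1687 in TAD7 with R1247 (5.08 and 24.2), F717 in TAD3 with R1225 (11.9 and 8.39), F174 in TAD1 with R1225 (3.98 and 11.2), F1351 with R162 in TAD1 (7.72 and 5.32) and F1275 with R1672 in TAD7 (7.01 and 4.31). F174 is 0.039 kb from the start of S100a8 and R162 is 2.88 kb from that of S100a6, both genes of calcium-binding proteins, and R1672 holds the start of Mllt11. The probes of F174 and R162 had no match within 3 mismatches at their own place in the reference, as held for 7 of 710 probes. F717 with R1225 had a Z score of 5.40 in keratinocyte library 2, and F1687 with R1247 had 0.221 and 2.98 in keratinocytes.

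Enriched contacts of one cell type were often not listed in the other. Of the 20 in keratinocytes, 4 were listed in no thymocyte library, 8 in 1 and 8 in both, and 5 were past the threshold in at least 1. Of the 30 in thymocytes, 3 were listed in no keratinocyte library, 11 in 1 and 16 in both, and 11 were past the threshold in at least 1. Of the 8 and 16 that both libraries of the other cell type listed, the 2 enriched in all 4 libraries were the only ones to pass in both. The others cannot be called particular to a cell type from these counts, since the difference between the cell types passed the adjusted p for none of them.

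The study placed 16 putative enhancers (E1 to E16), regions marked by H3K4me1 and H3K27ac in keratinocytes, in the gene-rich TADs, and each had a measured fragment within 10 kb. In keratinocytes 3 of 150 contacts between these fragments and TAD5 were enriched (2%), and in thymocytes 5 of 95 (5.26%), beside the 1.99% and 4.03% of all contacts. The 3 in keratinocytes were F154 with R1311 (E4 and E5), F1223 with R1021 (E9) and F1590 with R1249 (E14). Those in thymocytes were F1351 with R162 (E6 and E7), F1485 with R1247 and F1275 with R1490 (E12), F1275 with R1532 (E13) and F1275 with R1672 (E15).

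The study reports an interaction of E14 with the Tdpoz3 promoter in keratinocytes. The contact of E14, near the start of Pi4kb in TAD6, with the Tdpoz3 fragment spans 1146 kb. F1590, 4.33 kb from E14, met R1249 with a frequency of 254 and 195 in keratinocytes (expected 103 and 58.6) and Z scores of 2.73 and 5.25. Thymocyte library 1 did not list it, and in thymocyte library 2 the frequency was 19.1 against an expected 21.8, with a Z score of -0.309. Other fragments by E14 did not show it: F1593, which overlaps E14, had -0.547 with R1249 in keratinocyte library 1, -0.385 in thymocyte library 1 and -0.327 in thymocyte library 2. F1598, 3.26 kb from E14, had -0.658 in keratinocyte library 2 and -0.630 in thymocyte library 2. Neither probe of the contact has a copy within 3 mismatches in the locus.

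R1249, whose probe matched its own place and had no copy, had 3 enriched contacts of 136 in keratinocytes and 4 of 95 in thymocytes. Over all contacts listed in both libraries of a cell type, 1.99% and 4.03% were enriched, so these counts do not set the fragment apart. The keratinocyte contacts were those with F1590, with F937 at 2310050C09Rik in TAD3 (3.33 and 4.04) and with F111 near Snapin in TAD1 (3.38 and 3.75). The thymocyte contacts were those with F1061 near Flg, with F984 near Lce1m, with F1029 in TAD4 (3.78 and 4.19) and with F1604 at the end of TAD6 (8.11 and 2.63). No contact of this fragment was enriched in both cell types.

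To ask which contacts differed between the cell types, limma was fitted to the Z scores of all 23395 contacts listed in all 4 libraries. At an adjusted p under 0.05 (Benjamini-Hochberg), 0 of 527 TAD5 contacts and 0 of all contacts passed (0%), and the lowest adjusted p was 0.767. At an unadjusted p under 0.05, 6 TAD5 contacts were higher in keratinocytes (1.14%, against 2.97% of all) and 8 were lower (1.52%, against 2.14%). These unadjusted counts depended on the measure and on which libraries were fitted, over all contacts as well as over TAD5. With log2 frequency in place of the Z score they were 38 and 9 of the 527 TAD5 contacts, beside 1959 and 698 of all 23395. In that fit 7 and 107 of all contacts, but 0 TAD5 contacts, passed the adjusted p. Fits that leave out a library leave a cell type without replication, so their counts are not given. Both keratinocyte Z scores were above both thymocyte Z scores in 85 of the 527 (16.1%, against 21.1% of all contacts) and below both in 119 (22.6%, against 19.1%).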

How the data were processed

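5C libraries of 2 keratinocyte and 2 thymocyte samples were analysed. Per the study's methods, the authors demultiplexed reads with Novobarcode, aligned them with Bowtie (version not given in the sources used here) to the probe sequences (mm9 coordinates), counted forward-reverse pairs, removed poorly performing probes and single very high contacts, and corrected each probe with a Loess fit. The deposited tables list, per contact, the distance in kb, the corrected frequency, its Loess expected value and weighted SD (a signal, not counts), the Z score, and a p-value and q-value from a Weibull fit. Depth is therefore unknown and no counting interval is given. The deposited tables hold 1 library each, and no comparison columns were used.

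TAD borders were taken from the study, averaged over keratinocytes. Contacts were assigned by fragment midpoints. Library means over contacts listed in all 4 libraries were compared with exact permutation tests. Matched-distance differences used 50 kb bins (250 kb for far contacts) with at least 3 contacts of each kind, weighted by the smaller number, and exact sign-flip tests over libraries. limma 3.58.1 (R 4.3.3, eBayes with trend, Benjamini-Hochberg) was fitted to all contacts listed in all 4 libraries and tested on simulated data first. Other steps used Python 3.11.15. The NCBIM37 reference (mm9) had a HindIII site at the start of 711 of the 712 fragments, and probes were searched on both strands of the locus with up to 3 mismatches. Probe sequences are those of the study's probe list.

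Named contacts were the 5 with the highest mean Z score among those enriched in both libraries of a cell type, separately for neighbours and far partners, those enriched in all 4 libraries, and those of the study's enhancers with a fragment within 10 kb. Partner genes are the nearest starts within 10 kb. Other contacts of R1249, F1351 with R1403, F1275 with R1062 and the contacts within TAD5 were named after their values were seen. The members and lists were chosen with earlier results of these data known. Alternatives covered borders, measure, distance, contacts used, libraries, fragments and, added after seeing the data, probe copies.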

Additional observations from a re-analysis of the deposited data

Results flagged for a closer look

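In 2 comparisons at matched distance both keratinocyte libraries lay on one side of 0 and both thymocyte libraries on the other, and the difference between the cell types itself was not tested. The log2 frequency within TAD5 minus that within TAD4 was 0.96 and 0.49 in keratinocytes and -0.050 and -0.31 in thymocytes. It rested on 5 to 7 contacts in 1 bin in the thymocyte libraries, and on 6 in keratinocyte library 2, and without the pair of F1223 and R1225 it was 0.64, -0.21, -1.32 and -1.16. No contact of TAD4 was left out with that pair. With the Z score in place of log2 frequency it was 2.47, 0.598, -0.617 and -0.396.

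The Z score of far contacts of TAD5 minus far contacts of TAD4 was -0.177 and -0.143 in keratinocytes and 0.119 and 0.181 in thymocytes. With log2 of observed over expected frequency in place of the Z score it was -0.21, 0.026, 0.055 and 0.086, so that only keratinocyte library 1 was below 0.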

How the results depend on the processing

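Of 219 alternative values, 189 kept their direction (counts stayed within 1.5 times), 21 changed direction, and the others are counts of enriched contacts that moved further. Every direction of the mean Z score within TAD5 and with TAD4, TAD6, TAD3 and TAD7, of the listed share and of the mean difference between TAD4 and TAD6 was kept. The exact tests cannot go below 0.125 over 4 libraries or 0.333 for 2 against 2, so that a kept direction is not a passed test. The causes of the changes below were not tested.

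The TAD1 difference between cell types (0.0966) became -0.192 on the log2 observed over expected scale, -0.0162 as a median, -0.227 with every listed contact and -0.147 without R1247. Leaving out 1 library it ranged from -0.403 (without keratinocyte library 2) to 0.596 (without keratinocyte library 1). The difference of far contacts from TAD4 (-0.00512) became 0.00319 with the borders of keratinocyte replicate 2 and 0.00564 with the thymocyte end of TAD5, and from -0.0670 to 0.0523 without 1 library. That from TAD6 (-0.0108) became 0.0493 in bins of double width, 0.00555 on the log2 scale, 0.0520 with contacts listed in all 4 libraries, 0.00842 and 0.0290 with these borders, and -0.0347 to 0.0168 without 1 library. The differences within TAD5 from TAD4 and TAD6 became -0.51 and -0.54 without F1223 with R1225, an alternative chosen after seeing the data.

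Enriched contacts in keratinocytes (20 of 1155) numbered 9 at a q-value under 0.01, 8 among the 527 contacts listed in all 4 libraries and 98 to 128 in 1 library. Those in thymocytes (30 of 756) numbered 16 among the same 527 contacts and 141 to 178 in 1 library. Only fragments without a second probe copy at a HindIII site, also chosen after seeing the data, gave -0.266 for TAD1, 0.0617 and 0.0759 for far contacts against TAD4 and TAD6, and 10 and 16 enriched contacts. Fewer contacts were tested with these fragments, and with contacts listed in all 4 libraries, than in the main count. No share over all contacts is given for either subset, so these counts do not show whether the enriched share changed.

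Leaving out 1 library, the value within TAD5 ranged from 0.547 (without keratinocyte library 1) to 2.03 (without keratinocyte library 2), that of TAD3 from -0.503 to -0.130 (without the same libraries), that of TAD7 from -1.78 (without thymocyte library 1) to -0.649 (without thymocyte library 2), that of TAD4 from -0.386 to -0.193 (without keratinocyte library 2), that of TAD6 from -0.465 to -0.220 (without keratinocyte library 1), and TAD4 minus TAD6 at matched distance from 0.132 (without keratinocyte library 1) to 0.294. Libraries with the same replicate number did not deviate together (r = -0.0937 over all contacts), and nothing in the labels pairs them. With the replicate number as a block the differences stayed at 1.29 within TAD5, -0.290 with TAD4, -0.342 with TAD6, -0.317 with TAD3, 0.0966 with TAD1, -1.22 with TAD7 and 21.6 percentage points of listed pairs, with an exact sign-flip p of 0.5 or 1, and limma with the replicate block called 0 contacts. Limits are the 10 fragments measured, 2 libraries per cell type, the recurring probes and the unknown depth.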
